A study of Mus musculus with 4 samples.

Results

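The genes described here encode translation initiation factors (eIF) and translation elongation factors (eEF), the soluble proteins that load the ribosome onto an mRNA and move it along the message. Members were taken from the deposited table by symbol, as those beginning with Eif1 to Eif6, Eef1 or Eef2, and kept where their mean level reached 1 FPKM. FPKM counts fragments per kilobase and corrects for library size, and is a level per length. Levels of different genes are set side by side on that basis. Whether this holds for genes of unlike length in these libraries was not tested. Of 67 symbols that matched, 59 were members, among 18804 genes in the table and 9476 whose mean level reached 1 FPKM. The rule dropped the 4 eIF2 alpha kinases (Eif2ak genes), the Y-linked copy Eif2s3y, and 3 genes below the minimum, Eif1ad5, Eif4a3l1 and Eif5a2. The level closest above the minimum was that of Eif3j2, with a mean of 1.41 FPKM, and the level closest below it was that of Eif5a2, with 0.82 FPKM. The members divided into 48 initiation factors and their regulators and 11 elongation factors and their modifying enzymes.

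RNA-seq libraries were made from group 1 innate lymphoid cells (ILC1s) of mouse liver. ILC1s are resident lymphocytes related to natural killer cells. The first group was 2 libraries labelled Cd200r knockout (replicates 1 and 2) and the second was 2 libraries labelled WT (replicates 1 and 3). Both came from mice kept at homeostasis, that is without a stated challenge, and aged 5 to 8 weeks. CD200R is an inhibitory receptor of leukocytes, and the comparison asks how transcripts of libraries labelled as liver ILC1s differ when its gene is targeted. The sources used here do not give the strain background, the form of the targeted allele, the cell sort or the number of mice behind each library. The p-values therefore reflect only how far these libraries scatter, and that scatter may be technical.

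Initiation begins when the GTP-binding trimer eIF2 brings the initiator tRNA to the small ribosomal subunit, together with eIF1, eIF1A, eIF3 and eIF5. The eIF4 proteins bind the mRNA cap and unwind the leader, and eIF4E-binding proteins (4E-BPs) block that step until mTOR phosphorylates them. Elongation is carried by eEF1A, which delivers aminoacyl-tRNA, by eEF2, which moves the ribosome forward, and by eIF5A, which carries the modified lysine hypusine and helps at sequences that stall. Mouse lymphocytes raise many of these transcripts when they are activated and grow.

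The target transcript Cd200r1 stood at 110.7 and 103.7 FPKM in knockout against 161.5 and 173.3 FPKM in WT, so it was lower in both knockout libraries without being lost. The ILC1 markers Ncr1, Tbx21 and Cxcr6 were present in every library, and of the 9 measured ILC1 markers 2 passed the test as lower (Gzmc and Cd200r1). Markers of other cells also moved with genotype. Of 10 tested macrophage markers 7 were called higher, and the summed level of the whole list of 12 was 0.125% and 0.182% of all FPKM in knockout against 0.0478% and 0.0437% in WT. Of 8 tested conventional NK markers 7 were called higher, at summed levels of 0.0493% and 0.0991% against 0.0162% and 0.0153%. All 7 tested erythroid markers were called lower, with summed levels of 2.44% and 2.68% against 4.81% and 5.20%. Of the 13 mitochondrially encoded mRNAs 11 were called higher, at 2.51% and 2.89% against 1.30% and 1.64%. Of 13 tested cell cycle genes 7 were called higher, at 0.0773% and 0.0736% against 0.0461% and 0.0475%. Of the tested markers 1 of 7 for hepatocytes and 2 of 4 for neutrophils were called higher, and 0 of 6 for T cells, 0 of 4 for B cells and 0 of 1 for endothelium were called. Depth inferred from low values was 38972600 to 41162479 counted reads per library. In bulk libraries such as these, fewer cells of a type and less RNA per cell cannot be told apart.

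Before the values, promoter sequences of a few members are shown, to set out what the members with the largest differences do and do not have in common. RefSeq promoter entries (GRCm38.p6, 250 bases before to 50 after an annotated start) were matched for 45 of the 59 members. The first stretch is the 100 bases before the outermost of 6 annotated starts of Eif5a, the member with the smallest p, at chr11:69921959-69922058 on the minus strand. None of the words searched in the promoters occurs in it on either strand.

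Eif5a: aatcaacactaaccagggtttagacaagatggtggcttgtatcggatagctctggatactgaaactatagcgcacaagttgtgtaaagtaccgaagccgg

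The palindromic E-box word CACGTG, searched on both strands, was held by 12 of the 45 members with an entry (26.7%) and by 11.9% of the tested genes with an entry. Counted by promoter entry, the word was in 23.7% of those of the members and 7.15% of all 32851. Eif5a held it near 2 of its inner starts. The other lines show 4 more members whose differences went in both directions, and capitals mark the word. All are 5′ to 3′ on the strand of the gene.

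Eif5a (chr11:69921443-69921472, minus strand): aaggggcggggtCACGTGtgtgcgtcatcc
Eif5a (chr11:69920791-69920820, minus strand): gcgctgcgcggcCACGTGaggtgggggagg
Eif4a1 (chr11:69672595-69672624, minus strand): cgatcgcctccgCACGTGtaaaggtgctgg
Eif1b (chr9:120492570-120492599, plus strand): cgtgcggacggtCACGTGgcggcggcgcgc
Eif4g1 (chr16:20672661-20672690, plus strand): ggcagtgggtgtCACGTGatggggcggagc
Eef2 (chr10:81176576-81176605, plus strand): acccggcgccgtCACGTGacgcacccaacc

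Counted from the start of the same promoter entry, the word began at offsets of −74 and −178 bases in Eif5a, −189 in Eif4a1, −24 in Eif1b, −54 in Eif4g1 and −43 in Eef2, where a negative offset lies before the start. The median log2 fold change (knockout minus WT) was 0.07 over the 12 members with the word, of which 8 were positive. It was 0.09 over the other 33, of which 20 were positive. A matching word is a description and not a bound site.

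The palindromic word TGCGCA was held by 13 of the 45 members (28.9%), against 17.3% of tested genes. By promoter entry it was in 23.7% of those of the members and 7.76% of all. Eif5a held it in at least 1 of its 6 promoter entries, outside the 100-base stretch printed above. The word was also present at all 3 genes of the eIF2 trimer and, of the 4 eIF2B genes with an entry, at Eif2b5. Windows of these 4 eIF2 and eIF2B genes are shown because the genes had some of the largest positive differences among the members.

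Eif2s1 (chr12:78862017-78862046, plus strand): tctgtcggcgccTGCGCAgtgagaggtggc
Eif2s2 (chr2:154892860-154892889, minus strand): tttggcgagctcTGCGCAggcgcacttcca
Eif2s3x (chrX:94212790-94212819, minus strand): gcccggcgttccTGCGCAaattcaaacaga
Eif2b5 (chr16:20498782-20498811, plus strand): ctggtacacacaTGCGCAttccttcctctt

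The word began at offsets of −43, −156 and −23 bases in Eif2s1, Eif2s3x and Eif2b5, and 29 bases after the start in Eif2s2. Of the 13 members with TGCGCA, 11 had a positive log2 fold change, with a median of 0.13 over the 13. The others, Eif3a (−0.12) and Eif4g1 (−0.33), were negative. Of the 32 without it 17 were positive, among them Eif4a1 (0.25), and the median over the 32 was 0.06. CCGGAA, also on both strands, was held by 46.7% of members and 35.4% of tested genes, and GCCATNTT by 22.2% and 11.2%. By promoter entry, CCGGAA was in 42.4% of those of the members and 14.9% of all, and GCCATNTT in 18.6% and 6.05%. Eif5a was among the members with CCGGAA, and not among those with GCCATNTT. None of the words contains another. They were searched after the values of the members had been seen, and a link between a word and the differences was not tested.

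Messages of the translation machinery often begin with a 5′ terminal oligopyrimidine stretch, a cytosine followed by pyrimidines, through which mTOR controls their translation. A C followed by at least 4 bases that were all C or T, within 5 bases of the annotated start, was found at 10 of the 45 members (22.2%), close to the 23.4% of tested genes. The scan rests on annotated starts, and whether these are the starts used in these cells was not tested. Members without a promoter entry were not scanned. The 30 bases around the start of the clearest cases are shown, with the pyrimidine run in capitals.

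Eef1a1 (chr9:78481710-78481739, minus strand): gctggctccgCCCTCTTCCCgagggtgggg
Eif2s3x (chrX:94212637-94212666, minus strand): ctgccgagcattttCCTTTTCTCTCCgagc
Eif3f (chr7:108934400-108934429, plus strand): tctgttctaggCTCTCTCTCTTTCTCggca
Eif3l (chr15:79075208-79075237, plus strand): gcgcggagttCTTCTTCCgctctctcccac

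Of the 10 members with such a start 7 had a positive log2 fold change, with a median of 0.12, against 21 of 35 and a median of 0.07 without it.

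The members were abundant. Their median percentile of level among tested genes was 78.7, 46 of the 59 lay above the median gene, and 12 had a mean of at least 100 FPKM. The order began with Eef1a1 (mean 654.4 FPKM), Eif1 (558.9 FPKM) and Eif5a (507.7 FPKM), followed after a gap by Eif3g (212.9 FPKM) and Eif5 (144.3 FPKM). Eef1a1 was highest in each library. Eif1 and Eif5a did not keep their order, since Eif5a at 590.6 FPKM in knockout replicate 2 exceeded Eif1 at 580.1 FPKM in the same library. At the other end, 13 members had a mean below 10 FPKM, among them Eif4g1, Eif4g3, Eif2s3x and Eef2k.

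**Figure D1:**
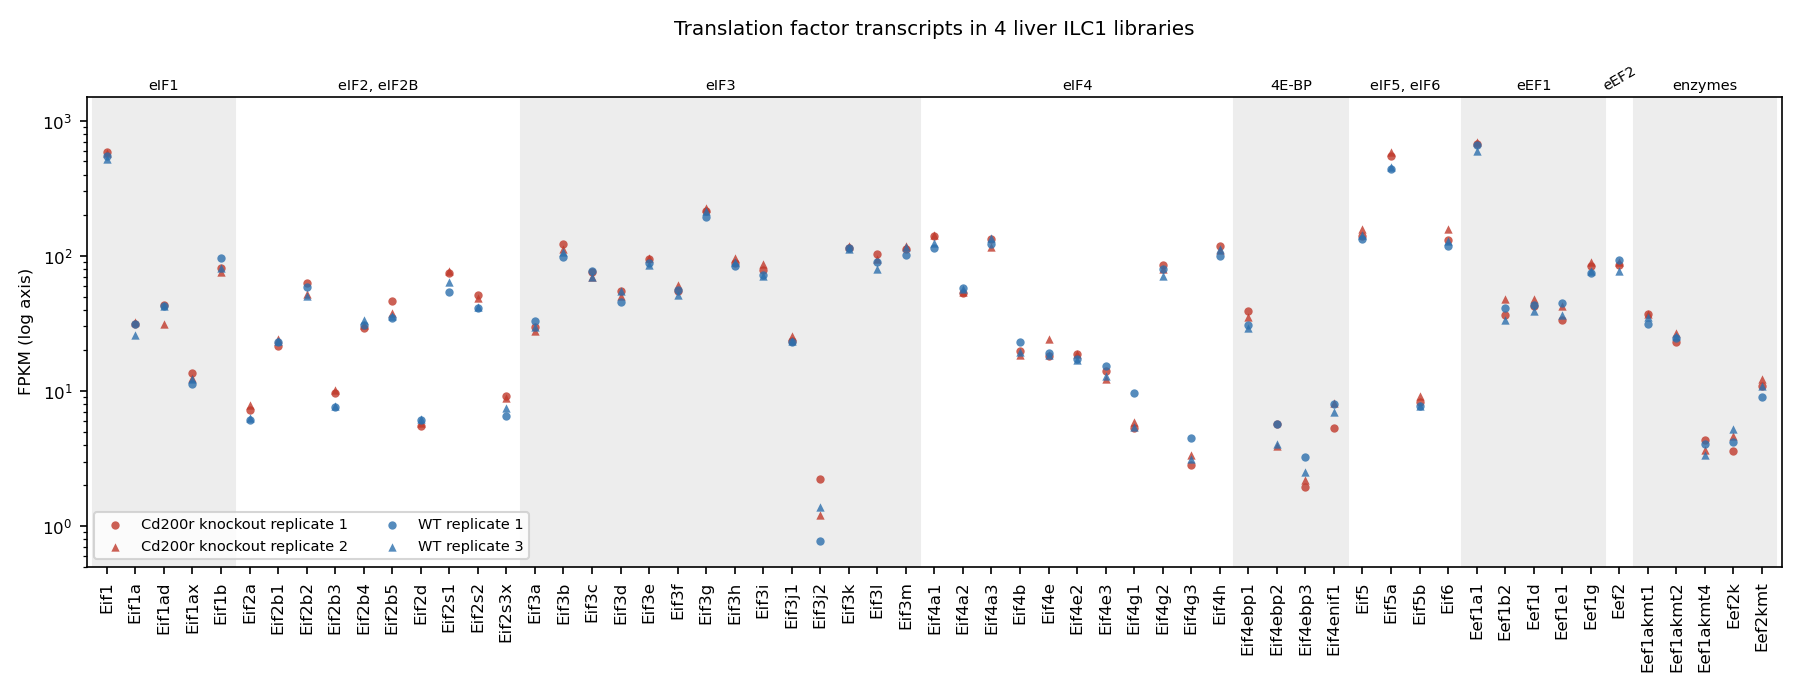
FPKM of the 59 members (vertical log axis) in each of the 4 libraries, ordered by role; circles and triangles are replicates 1 and 2 of knockout (red) and replicates 1 and 3 of WT (blue). Levels ran from 1.41 FPKM (Eif3j2) to 654.4 FPKM (Eef1a1) on the mean, and differences between genes far exceeded those between genotypes.

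The summed level of the 59 members was 4768 and 4872 FPKM in knockout and 4415 and 4363 FPKM in WT. These sums were 0.932% and 0.930% of all FPKM in knockout replicates 1 and 2, against 0.860% and 0.846% in WT replicates 1 and 3. Both knockout libraries were higher than both WT libraries, by 1.10-fold on the group means. Eif5a alone gave 28.1% of the summed difference of 431 FPKM, Eef1a1 12.2% and Eif1 11.5%. Without these 3 genes the sums were 2964 and 3010 FPKM in knockout and 2771 and 2789 FPKM in WT, and the groups still did not overlap.

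Gene by gene, the groups were compared with limma on log2(FPKM + 1), and a member was called at an adjusted p of at most 0.05. Of 59 members 1 was called higher in knockout, Eif5a, and 0 were called lower. Over all 9476 tested genes 3.33% were called, 2.40% higher and 0.939% lower, so the members' share of 1.70% was no larger than the background. An unadjusted p under 0.05 was found for 5 of the 59 members, all higher in knockout. That share was smaller than the 15.5% of all tested genes (1468 of 9476). Both knockout values lay above both WT values in 24 members (40.7%), against 24.3% of all tested genes, and both lay below in 4 members (6.78%), against 21.7%. Counted in either direction, 28 members (47.5%) had groups without overlap, against 46.0% of all tested genes. A positive log2 fold change was seen in 40 members (67.8%), against 50.5% of all tested genes, and the median was 0.12 against 0.00.

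**Figure D2:**
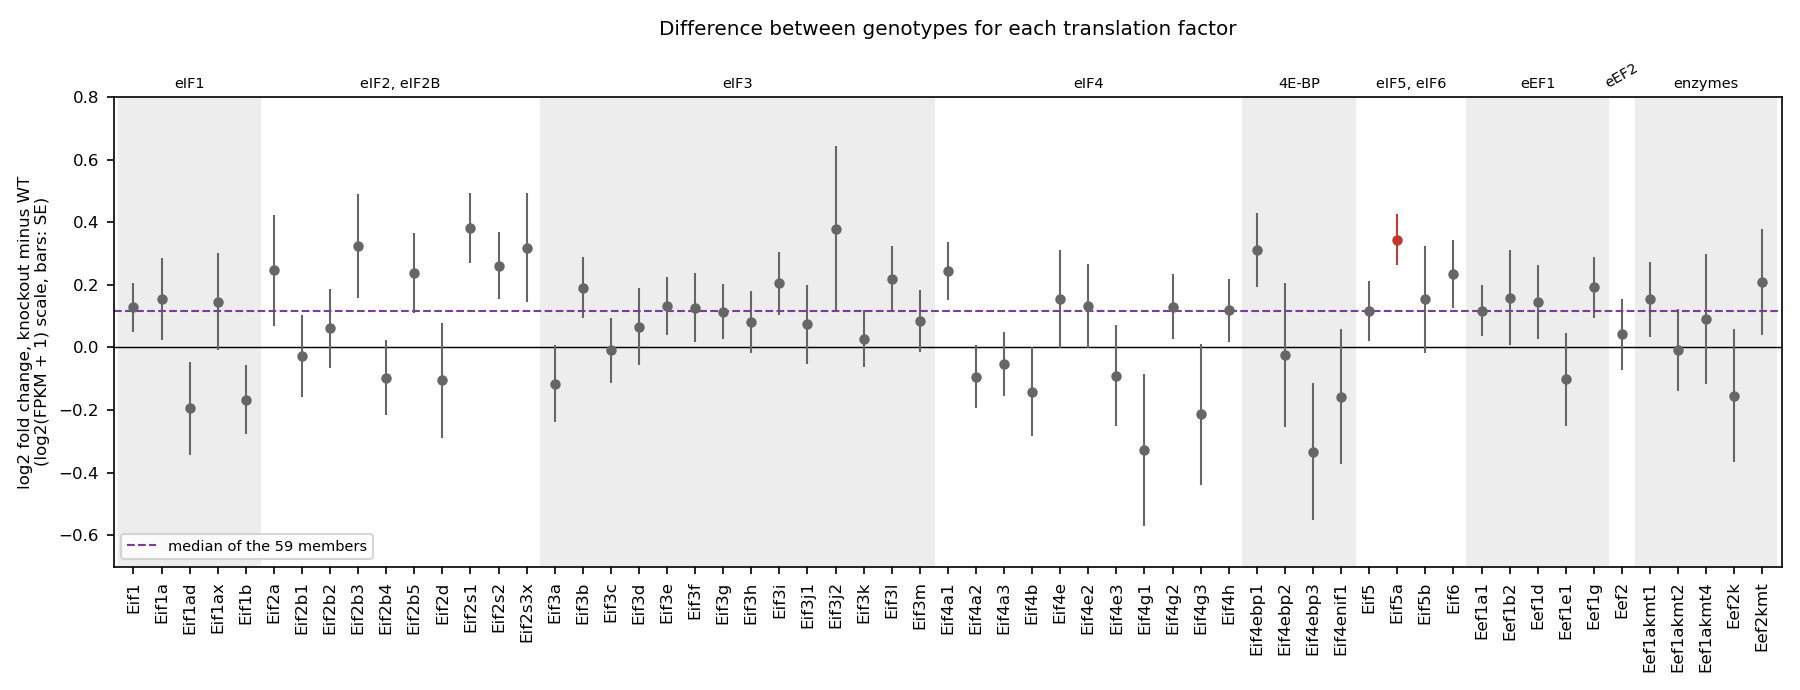
Log2 fold change of each member on the log2(FPKM + 1) scale, positive where knockout was higher (vertical axis), ordered by role; bars are the standard error from limma, the dashed line is the median of the 59 members (0.12) and the red point is the 1 called member. Eif2s1, Eif3j2 and Eif5a lie highest, and the eIF4 group lies on both sides of 0.

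The eIF5 and eIF6 group held the called member, and all 4 of its members had a positive log2 fold change, with a median of 0.19. Eif5a (Entrez 276770, chromosome 11, 69916712 to 69921958, minus strand) encodes eIF5A, the hypusine-bearing factor that helps peptide bonds form at stalling sequences such as runs of proline. Knockout replicates 1 and 2 gave 545.8 and 590.6 FPKM, and WT replicates 1 and 3 gave 437.2 and 457.0 FPKM. The knockout values were both higher and the groups did not overlap. The mean was 568.2 ± 31.6 FPKM (SD, n = 2) in knockout and 447.1 ± 14.0 FPKM (SD, n = 2) in WT. Eif5a rose 1.27-fold and its log2 fold change was 0.34 (SE 0.08, limma adjusted p = 0.0486). The call was close to the threshold and was met in 3 of 13 alternative settings, with an adjusted p from 0.0156 to 0.400 and a log2 fold change from 0.28 to 0.40. It was lost without knockout replicate 2 (adjusted p = 0.126), without WT replicate 1 (adjusted p = 0.400) and without WT replicate 3 (adjusted p = 0.174). Among 50-base windows of the Eif5a transcript, 7.13% also occurred in other GENCODE genes, mostly a pseudogene. Hypusine is made by a pair of enzymes, and neither of their transcripts passed the test. Dhps, the deoxyhypusine synthase, was lower in both knockout libraries, at 28.3 and 30.1 FPKM against 30.5 and 32.1 FPKM in WT (log2 fold change −0.10, SE 0.12). Dohh, the hydroxylase, was slightly higher in both, at 16.8 and 16.9 FPKM against 16.2 and 16.6 FPKM (log2 fold change 0.04, SE 0.14).

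Eif6, which encodes the factor that keeps the large ribosomal subunit from joining too early, measured 131.8 and 159.1 FPKM in knockout and 117.5 and 128.5 FPKM in WT. The groups did not overlap, though the knockout values differed from each other by more than the gap between the groups, and the test was not passed (log2 fold change 0.24, SE 0.11, adjusted p = 0.335). Eif5, the GTPase-activating factor for eIF2, measured 141.1 and 159.4 FPKM against 134.1 and 142.5 FPKM, which overlap. Eif5b, the GTPase that joins the subunits, was the lowest of the group at 8.30 and 9.19 FPKM against 7.77 and 7.72 FPKM.

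In the eIF2 trimer every subunit was higher in both knockout libraries, as were 24.3% of all tested genes. None of the 3 passed the test. Eif2s1 (Entrez 13665, chromosome 12, 78862072 to 78887010) encodes the alpha subunit, whose phosphorylation by stress kinases slows initiation. It measured 75.3 and 77.7 FPKM in knockout and 53.6 and 63.7 FPKM in WT. The knockout libraries lay close together and the WT libraries were further apart, with no overlap (1.30-fold, log2 fold change 0.38, SE 0.11, adjusted p = 0.111). Over the 13 alternatives its adjusted p ranged from 0.0816 to 0.716. Eif2s2, the beta subunit, measured 51.0 and 48.5 FPKM in knockout and 40.9 and 41.7 FPKM in WT, again without overlap (1.20-fold, log2 fold change 0.26, SE 0.11, adjusted p = 0.275). Eif2s3x, the X-linked gamma subunit that binds GTP and the initiator tRNA, was lower in level, at 9.24 and 8.80 FPKM against 6.56 and 7.53 FPKM. Its groups did not overlap (log2 fold change 0.32, SE 0.18, adjusted p = 0.431).

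The summed level of the trimer was 135.5 and 135.0 FPKM in knockout and 101.1 and 113.0 FPKM in WT, a ratio of 1.26 between the means. The gamma subunit has a Y-linked homologue, Eif2s3y, which the member rule left out. Eif2s3y measured 15.3 and 15.3 FPKM in knockout and 11.6 and 12.1 FPKM in WT, with the same direction and a similar size (log2 fold change 0.34, SE 0.15, adjusted p = 0.293). The ratio of Eif2s3y to Eif2s3x was 1.66 and 1.73 in knockout and 1.76 and 1.60 in WT, so the copies kept nearly the same proportion in every library. Their coding sequences share 86.4% of bases. Of the 50-base windows of Eif2s3x, 36.2% occur in other annotated genes, for Eif2s2 27.8% and for Eif2s1 8.49%, so reads of the trimer can be split with pseudogenes depending on the counting.

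**Figure D3:**
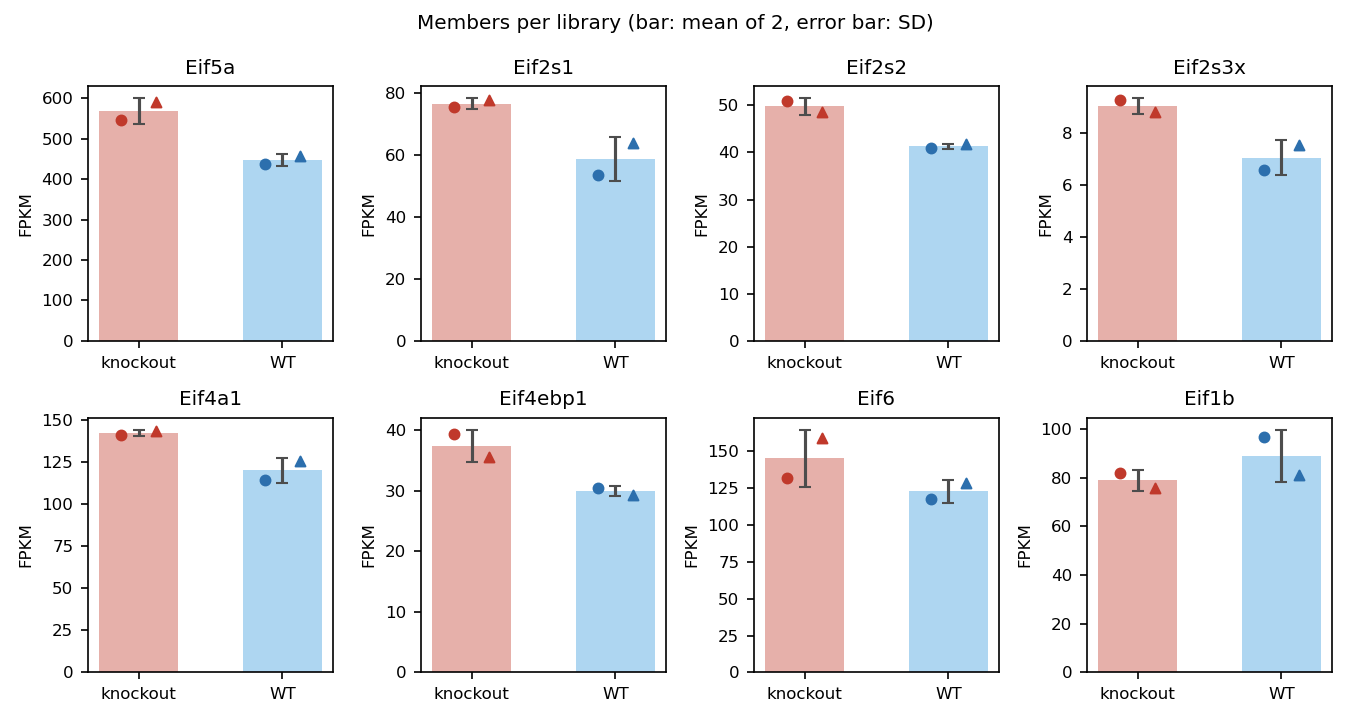
FPKM per library (vertical axes, from 0) for 8 members; bars are means of 2 libraries, error bars the SD, circles replicate 1 and triangles replicate 2 (knockout, red) or 3 (WT, blue). The knockout points lie above the WT points in the 7 panels from Eif5a to Eif6, and the points of Eif1b overlap. The panels are a selection, not a sample of the members. Over all 59 members 24 (40.7%) were higher without overlap, against 24.3% of all tested genes. None of the 4 members lower without overlap is shown.

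Subunits of eIF2B, the exchange factor that reloads eIF2 with GTP, differed in direction. Eif2b3 (gamma subunit) measured 9.69 and 10.1 FPKM in knockout and 7.60 and 7.80 FPKM in WT. Eif2b5, the catalytic epsilon subunit, measured 46.1 and 37.8 FPKM in knockout and 34.5 and 36.1 FPKM in WT. Both sets of values were higher in knockout without overlap, and neither gene passed (adjusted p = 0.397 and 0.416). Eif2b2 (beta subunit) overlapped at 62.6 and 51.9 FPKM against 58.9 and 50.5 FPKM, and so did Eif2b1 (alpha), at 21.5 and 24.3 FPKM against 23.1 and 23.5 FPKM. Eif2b4 (delta) was lower in both knockout libraries, at 29.0 and 31.0 FPKM against 31.0 and 33.3 FPKM, with a log2 fold change of −0.10 (SE 0.12). Eif2d, a factor that can place tRNA on the ribosome without eIF2, was also lower in both knockout libraries, at 5.52 and 5.77 FPKM against 6.11 and 6.18 FPKM (log2 fold change −0.10, SE 0.18). Over the 10 eIF2 and eIF2B members 7 were positive, with a median of 0.24.

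Among the eIF1 members, which monitor start codon choice, the dominant transcript was Eif1. Eif1 measured 587.5 and 580.1 FPKM in knockout and 547.9 and 520.3 FPKM in WT, without overlap (1.09-fold, log2 fold change 0.13, SE 0.08, adjusted p = 0.476). Its paralog Eif1b went the other way in value, at 81.8 and 75.8 FPKM in knockout and 96.5 and 81.1 FPKM in WT, and overlapped (log2 fold change −0.17, SE 0.11, adjusted p = 0.526). The ratio of Eif1b to Eif1 was accordingly lower in both knockout libraries, at 0.139 and 0.131 against 0.176 and 0.156. The paralogs share 81.4% of coding bases, and 31.6% of the 50-base windows of Eif1 occur in other genes. Eif1ax, the X-linked copy of eIF1A, measured 13.6 and 12.5 FPKM against 11.2 and 12.3 FPKM, and Eif1a 31.4 and 32.5 FPKM against 31.5 and 26.0 FPKM. Eif1ad, a protein with an eIF1A-like domain, had 1 low library, knockout replicate 2 at 31.4 FPKM, against 43.5 FPKM in knockout replicate 1 and 42.3 and 42.5 FPKM in WT; 15.3% of its exon bases are shared with Banf1 on the opposite strand.

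The eIF3 complex, the scaffold that binds the small subunit and recruits mRNA, gave 14 members, of which 12 had a positive log2 fold change and 0 were called; the smallest adjusted p was 0.344 and the median log2 fold change 0.10. In 6 of them, Eif3l, Eif3i, Eif3b, Eif3e, Eif3g and Eif3j1, both knockout values exceeded both WT values. The same held for 24.3% of all tested genes. Of the 50-base windows of Eif3j1, 54.8% occur in other genes, so its level is uncertain. Eif3l, a peripheral subunit, measured 103.2 and 94.6 FPKM in knockout and 89.8 and 79.9 FPKM in WT, a 1.17-fold difference (log2 0.22, SE 0.10, adjusted p = 0.344). Eif3i, part of the module around subunit b, measured 78.8 and 87.2 FPKM against 72.1 and 71.5 FPKM (0.21, SE 0.10, adjusted p = 0.369). Eif3b, the scaffold of that module, measured 122.6 and 113.1 FPKM against 98.6 and 107.7 FPKM (0.19, SE 0.10, adjusted p = 0.392). These 3 had the largest differences of the abundant subunits. Eif3g, the most abundant subunit transcript, measured 216.4 and 226.2 FPKM against 195.0 and 214.0 FPKM, a small gap beside the spread in WT. Eif3k, of the outer arm, overlapped, at 114.3 and 118.1 FPKM against 115.0 and 112.9 FPKM.

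Transcripts of the complex were not at equal levels, although the subunits are assembled in equal number. Leaving out the loosely bound subunit j, the highest subunit (Eif3g) exceeded the lowest by 7.29 and 8.12 times in knockout and by 5.92 and 7.22 times in WT. The lowest was Eif3a. Coding length was 960 bases for Eif3g and 4032 for Eif3a, and its part in this range was not tested. The 2 negative members were Eif3a, the largest subunit, at −0.12 (SE 0.12), and Eif3c, at −0.01 (SE 0.10). Eif3j2, with 2.24 and 1.21 FPKM against 0.777 and 1.39 FPKM, had a wide spread and shares 99.2% of coding bases with Eif3j1, so its level is uncertain. The antisense gene Gm17638 covers 43.3% of the exon bases of Eif3d, and the kit does not mark the strand. The value of Eif3d, which overlapped between groups, can therefore hold reads of both.

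The eIF4 group, which binds the cap and opens the leader, had a median log2 fold change of −0.05, with 5 positive and 6 negative members and 0 called. The largest positive value was that of Eif4a1, a DEAD-box RNA helicase. It measured 140.7 and 143.5 FPKM in knockout and 114.5 and 125.2 FPKM in WT, a 1.19-fold difference (log2 fold change 0.25, SE 0.09, adjusted p = 0.222). Both knockout libraries were higher, and the replicates within a group were closer to each other than the groups were. Its paralog Eif4a2 was lower in both knockout libraries, at 53.4 and 53.7 FPKM against 57.5 and 56.8 FPKM (log2 fold change −0.09, SE 0.10). The ratio of Eif4a2 to Eif4a1 was 0.380 and 0.374 in knockout and 0.503 and 0.454 in WT, and did not overlap. These paralogs share 78.6% of coding bases, and 65.3% of the 50-base windows of Eif4a1 occur in other genes, most of them in 1 pseudogene. Eif4a3, the helicase of the exon junction complex, overlapped at 132.5 and 116.9 FPKM against 122.2 and 136.3 FPKM.

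The scaffold eIF4G was low in FPKM in all libraries. Eif4g1 and Eif4g3 have the longest coding sequences of the members, at 4800 and 5286 bases. The part of length in their levels was not tested. Eif4g1 measured 5.33 and 5.92 FPKM in knockout and 9.70 and 5.43 FPKM in WT. A single library, WT replicate 1, carried the difference (log2 fold change −0.33, SE 0.24), and without it the value was 0.04. Eif4g3 had the same pattern, with 2.81 and 3.38 FPKM against 4.45 and 3.11 FPKM. Eif4g2, a homologue that does not bind the cap protein, was far more abundant, at 85.2 and 79.5 FPKM against 79.6 and 70.9 FPKM. The cap-binding protein Eif4e measured 18.2 and 24.1 FPKM against 19.1 and 18.3 FPKM, with only knockout replicate 2 apart. Eif4h, a cofactor of the helicase, overlapped at 118.5 and 110.2 FPKM against 99.1 and 111.7 FPKM.

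The eIF4E-binding regulators differed among themselves. Eif4ebp1, encoding 4E-BP1, was the most abundant of them and measured 39.3 and 35.5 FPKM in knockout and 30.5 and 29.3 FPKM in WT, without overlap (1.25-fold, log2 fold change 0.31, SE 0.12, adjusted p = 0.233). Eif4ebp2 measured 5.66 and 3.91 FPKM against 5.65 and 4.08 FPKM, nearly the same in both groups. Eif4ebp3 was lower in both knockout libraries, at 1.94 and 2.20 FPKM against 3.25 and 2.52 FPKM (log2 fold change −0.33, SE 0.22, adjusted p = 0.517). Another annotated gene on the same strand, AC115631.1, covers 67.3% of the exon bases of Eif4ebp3, so its level is uncertain. Eif4enif1, which carries eIF4E into the nucleus, had 1 low library, knockout replicate 1, at 5.30 FPKM against 8.18, 8.01 and 6.98 FPKM in the other three. The ratio of Eif4ebp1 to Eif4e was 2.16 and 1.47 in knockout and 1.60 and 1.60 in WT, so the repressor did not shift against its target beyond the spread.

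**Figure D4:**
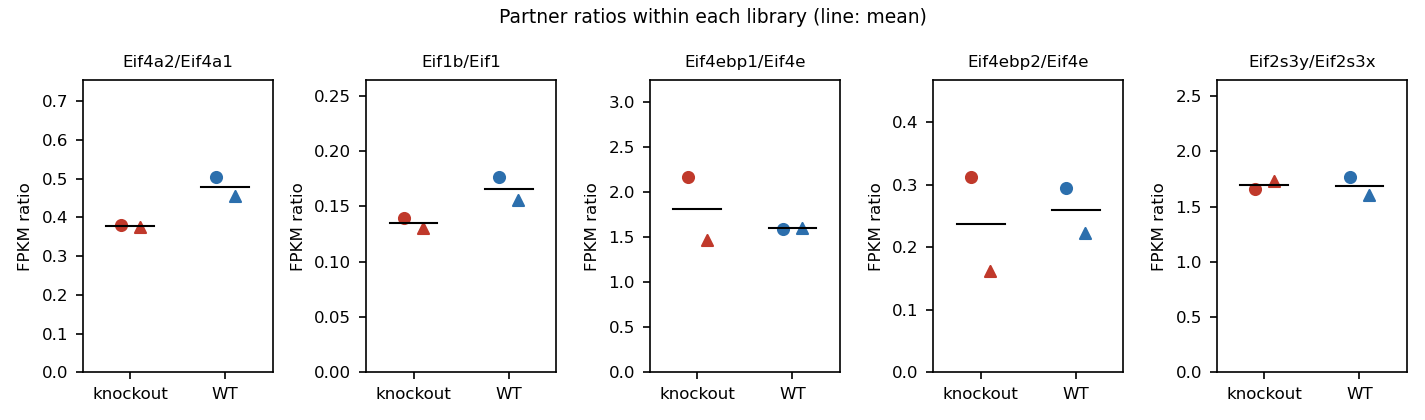
Ratios of FPKM between partner transcripts in each library (vertical axes, from 0); circles are replicate 1, triangles replicate 2 (knockout, red) or 3 (WT, blue) and lines are group means. Eif4a2/Eif4a1 and Eif1b/Eif1 lie lower in both knockout libraries, and the other 3 ratios overlap.

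None of the eEF1 and eEF2 genes was called; Eif5a, the called member, is described with the initiation factors above. Eef1a1, which encodes the carrier of aminoacyl-tRNA, measured 670.9 and 690.7 FPKM in knockout and 659.2 and 596.9 FPKM in WT. The groups did not overlap, but the gap between them was smaller than the spread in WT (1.08-fold, log2 fold change 0.12, SE 0.08, adjusted p = 0.548). Pseudogenes and other genes share 60.6% of its 50-base windows, so the level is uncertain. The subunits of the exchange factor eEF1B were Eef1g, at 84.4 and 90.8 FPKM against 75.2 and 77.8 FPKM, Eef1d, at 42.8 and 48.1 FPKM against 43.2 and 38.8 FPKM, and Eef1b2, at 36.5 and 47.7 FPKM against 41.4 and 33.5 FPKM. Only Eef1g had groups without overlap (log2 fold change 0.19, SE 0.10, adjusted p = 0.393), and 64.3% of its windows occur in other genes. Eef1e1, a scaffold protein of the tRNA synthetase complex, measured 33.4 and 42.3 FPKM against 45.0 and 36.3 FPKM. Eef2, the translocase, measured 85.3 and 89.7 FPKM against 93.9 and 76.8 FPKM, with both knockout values between the WT values (log2 fold change 0.04, SE 0.11, adjusted p = 0.906).

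Enzymes that modify the elongation factors gave 5 members, of which 0 were called. The kinase Eef2k, which inactivates eEF2, was low at 3.57 and 4.63 FPKM in knockout and 4.15 and 5.18 FPKM in WT. The lysine methyltransferases of eEF1A were Eef1akmt1, at 36.8 and 37.3 FPKM against 31.2 and 35.4 FPKM, Eef1akmt2, at 23.0 and 26.8 FPKM against 24.6 and 25.3 FPKM, and Eef1akmt4, at 4.35 and 3.68 FPKM against 4.08 and 3.34 FPKM. The methyltransferase of eEF2, Eef2kmt, measured 10.95 and 12.25 FPKM against 9.002 and 10.84 FPKM. Eef1akmt1 and Eef2kmt were higher in both knockout libraries, as were 24.3% of all tested genes, and the others overlapped. Exons of Alg1 and of an antisense gene on the opposite strand cover 23.0% of the exon bases of Eef2kmt.

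The positive shift of the members was set beside other genes of translation in the same fit. Of 85 genes with the symbol of a cytosolic ribosomal protein, 2 were called higher (Rpl36a, 1.40-fold, and Rpl12, 1.34-fold) and 0 lower; 78 had a positive log2 fold change, with a median of 0.14, close to the 0.12 of the factors. The symbols take in Rps19bp1 (−0.06), which encodes a protein that binds RPS19 and is not a ribosomal protein; without it 78 of 84 were positive, with the same median. Of 46 other translation genes outside the member rule, 0 were called in either direction and 0 had an unadjusted p under 0.05; 19 were positive and 27 negative, with a median of −0.08. Within these, the 8 genes around eIF2 phosphorylation had a median of −0.22. The kinase Eif2ak3 (PERK) overlapped at 11.6 and 7.08 FPKM in knockout and 14.6 and 11.5 FPKM in WT. The kinase Eif2ak1 (HRI) was lower in both knockout libraries, at 34.1 and 29.0 FPKM against 38.1 and 36.2 FPKM. Gcn1 (0.921 and 1.08 FPKM against 1.89 and 1.68 FPKM) and Impact (1.07 and 0.870 FPKM against 2.23 and 1.36 FPKM) were also lower in both knockout libraries. Both genes lay near the minimum of 1 FPKM. The 4 log2 fold changes were −0.46, −0.23, −0.48 and −0.49 in that order, with adjusted p from 0.335 to 0.418. The downstream factor Atf4 overlapped, at 90.4 and 73.5 FPKM against 87.0 and 76.0 FPKM.

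The 13 tested genes acting on the cap, the poly(A) tail and scanning had a median of −0.11. The 4 with the smallest p all had negative values: Gigyf2 (−0.51), Larp1 (−0.35), Ddx3x (−0.28) and Abcf1 (−0.19). Of these 4 only Gigyf2 had groups without overlap. Gigyf2 is a repressor that works with Eif4e2, and Larp1 binds messages with a pyrimidine start. The list of upstream kinases, kinase partners and the substrate Rps6 had 8 tested genes, with a median of −0.07. Mtor and Rps6ka3 fell below the minimum of 1 FPKM and were not tested. Rps6 (0.16), which is also one of the ribosomal proteins, came first by p, then Rps6ka1 (−0.14), Mknk1 (−0.21) and Rptor (−0.28). The 8 genes of termination, recycling and rescue had a median of 0.09, with Mcts2 (−0.53), Abce1 (−0.20), Etf1 (0.21) and Mcts1 (0.14) first by p. The 9 genes of hypusination, selenocysteine and mitochondrial translation had a median of 0.01, with Tsfm (0.21), Mtif3 (−0.25), Tufm (−0.13) and Dhps (−0.10) first. None of these passed the test.

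Between the group means, the direction of difference went with coding length across the whole table. Among tested genes with a coding length under 1000 bases 64.3% had a positive log2 fold change (median 0.07), from 1000 to under 2000 bases 50.5% (median 0.00), and at 2000 bases or more 31.9% (median −0.10). Each library was also set against each gene's mean over the libraries, on the log2(FPKM + 1) scale. For tested genes under 1000 bases the median deviation was 0.009 and 0.065 in knockout replicates 1 and 2. In WT replicates 1 and 3 it was −0.025 and −0.046. From 1000 to under 2000 bases it was 0.017 and −0.011 in knockout and 0.004 and −0.003 in WT. For tested genes of 2000 bases or more the median deviation was −0.005 and −0.084 in knockout replicates 1 and 2. It was 0.098 and 0.001 in WT replicates 1 and 3. Knockout replicate 1 and WT replicate 3 thus hardly differed there. The members' median log2 fold change was also lowest at the long end. Of 27 members under 1000 bases 19 were positive (median 0.13), of 21 members from 1000 to under 2000 bases 16 (median 0.12), and of 11 members at 2000 bases or more 5 (median −0.01). Members under 1000 bases had a median deviation of 0.056 and 0.085 in knockout replicates 1 and 2, and −0.044 and −0.068 in WT. Members from 1000 to under 2000 bases had 0.038 and 0.081 in knockout, and −0.052 and −0.058 in WT. The 11 long members had a median deviation of −0.014 and 0.015 in knockout replicates 1 and 2. In WT replicates 1 and 3 it was 0.072 and −0.081, so WT lay on both sides of knockout. Single members went both ways at each end. The longest, Eif4g3, Eif4g1 and Eif3a, had negative values, and Eif5b, next in length at 3648 coding bases, had 0.15. Among short members, Eif5a (462 coding bases) had 0.34 and Eif4ebp1 (351) 0.31, but Eif4ebp3, the shortest at 303, had the most negative value of all members (−0.33), and Eif1b (339) and Eif1ad (510) had −0.17 and −0.19. The part of coding length in the members' difference was not tested, nor was that of the macrophage, NK, erythroid, cell cycle and mitochondrial transcripts that moved with genotype. When each library was rescaled after leaving out haemoglobin and mitochondrial genes, the ratio of summed member levels was 1.08 and the median log2 fold change 0.09, and with quantile normalization they were 1.05 and 0.06.

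**Figure D5:**
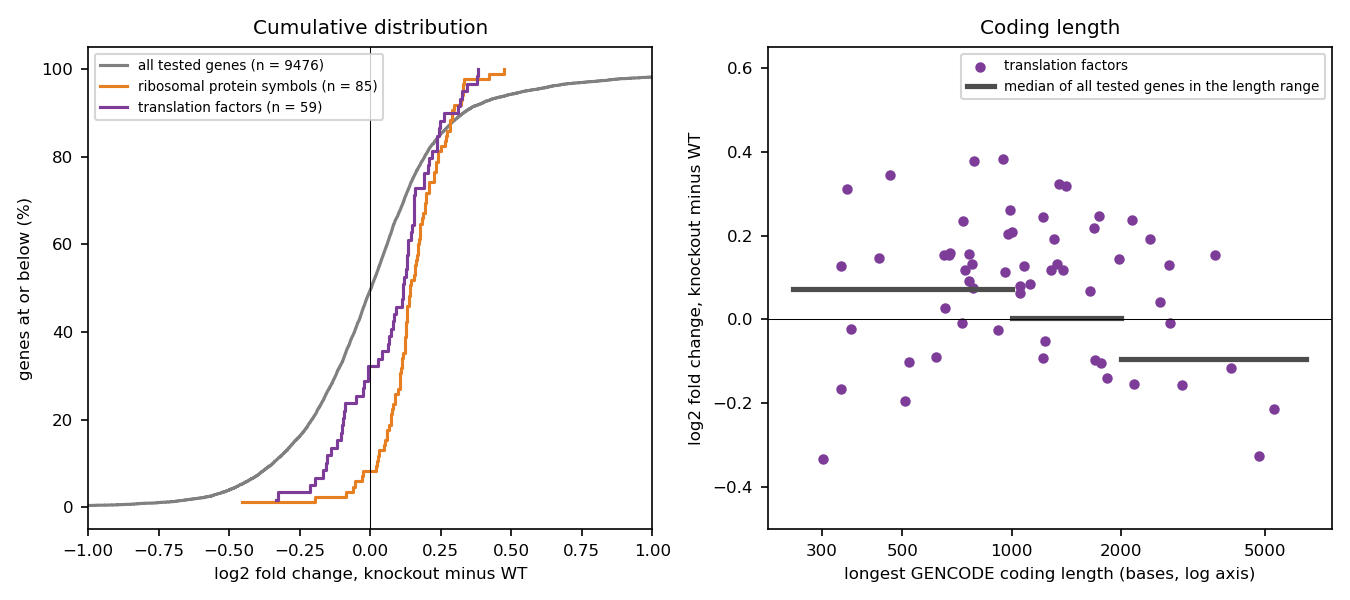
Left, cumulative share of genes (vertical axis, percent) by log2 fold change, knockout minus WT (horizontal axis, shown from −1 to 1), for the 59 members, 85 genes with a ribosomal protein symbol and 9476 tested genes; right, log2 fold change of each member (vertical axis) against coding length in bases (horizontal log axis), with bars at the median of all tested genes in 3 length ranges. The curve of the members lies to the right of that of all genes over most of its range, and the medians of all genes run from 0.07 for short to −0.10 for long coding sequences.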

How the data were processed

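Per the labels' protocols, TRIzol RNA was amplified as cDNA with a kit meant for single cells and made into libraries with a transposase kit, which does not mark the strand. Per the submitters' processing notes, fastp, HISAT2, HTSeq, DESeq2 and R 3.2.0 were used with build mm10. Their roles are not stated. The deposited values are FPKM per gene, as the authors made them, with no scaling between libraries stated and no read counts. Depth was inferred from single-exon genes, of whose low values 70.3% to 74.3% lay within 0.05 of a whole read, and 1 FPKM corresponds to 39.0 to 41.2 reads per kilobase.

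Genes averaging 1 FPKM or more over the libraries (9476) were tested on the log2(FPKM + 1) scale. Knockout and WT were compared with limma 3.58.1 (R 4.3.3) with a mean-variance trend, two-sided and without covariates, with Benjamini-Hochberg adjustment over all tested genes (threshold 0.05). A log2 fold change on this scale understates the change of low genes. The script was tested on simulated data that followed the fitted trend, with added changes larger than those of the members. That simulation does not cover differences of the members' size. An exact permutation test of 2 against 2 libraries cannot give a p below 0.333, so sums and ratios carry no test.

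The members, gene lists and tests were chosen with earlier results of these data known. In each role the text names members past the test, the 4 with the smallest p, the 2 highest and the lowest in level, and partners in ratios. From each list of other translation genes it names those past the test and the 4 with the smallest p. Eif2s3x, Eif2b1, Eif2b4, Eif3a, Eif3c, Eif3d, Eif3e, Eif3f, Eif3j1, Eif4e2, Eif2s3y, Dohh and Atf4 were named beyond that after their values were seen. Coding length is the longest in GENCODE M21, and 92.3% of tested genes had one. Alternatives were pseudocounts of 0.1 and 5, no filter and a filter at 5 FPKM, 4 scalings, no trend, and each library left out.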

Additional observations from a re-analysis of the deposited data

How the results depend on the processing

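Of 13 alternatives, 3 called Eif5a (the filter at 5 FPKM, TPM, and without knockout replicate 1). The count of members called higher was 0 with pseudocounts of 0.1 and 5, without the filter, with quantile normalization, with rescaling that leaves out haemoglobin and mitochondrial genes, with median-of-ratios scaling and without the trend, and 0 to 1 with a library left out. The count called lower was 0 in every setting. Over all genes limma called 0 to 574, with 0 when all 18155 genes above 0 were tested (1898 at an unadjusted p under 0.05). The members' median log2 fold change was 0.0641 with quantile normalization, 0.0917 with the rescaling, and 0.0807 to 0.128 with a library left out. The ratio of sums was 1.05 and 1.08 in these scalings, and 1.09 to 1.11 with a library left out.

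Of 54 named members, 38 kept the sign of their log2 fold change in all alternatives. Quantile normalization turned Eef2 (−0.00458) and Eif3k (−0.0346). Leaving out a library turned the others, and the cause was not tested. The range was −0.114 to 0.0982 for Eef1akmt2, −0.0227 to 0.205 for Eef1akmt4, −0.0310 to 0.348 for Eef1b2, −0.267 to 0.0638 for Eef1e1 and −0.101 to 0.185 for Eef2. It was −0.424 to 0.0346 for Eif1ad, −0.0706 to 0.195 for Eif2b2, −0.142 to 0.0380 for Eif4a3 and −0.0404 to 0.3496 for Eif4e. It was −0.109 to 0.0565 for Eif2b1, −0.0767 to 0.0590 for Eif3c and −0.0712 to 0.205 for Eif3d. For Eif4ebp2 it was −0.242 to 0.196, for Eif4enif1 −0.428 to 0.114, and for Eif4g1 −0.693 to 0.0404. A lone library is there assumed to vary like the others.

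No paired analysis was possible because the groups share only replicate number 1. With 2 libraries a group, most member differences were not separable from replicate spread.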
